A study of Mus musculus with 2 samples.

Results

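The intestinal identity transcription factors are Cdx1, Cdx2, Hnf4a, Hnf4g, Gata4, Gata6, Klf4 and Klf5, and their 8 gene symbols were taken by exact match from the 40879 symbols in each count table. They were measured in mouse intestine from 2 groups, wild type (WT) and a group labelled hetero type (HT) for Erap1, a label that stands for 1 disrupted allele. Erap1 encodes a peptidase of the endoplasmic reticulum that trims peptides for antigen presentation. Per the methods of the study, the mice were of the C57BL/6 strain and 8 weeks old when experiments began, the allele came from a conditional knockout line crossed with a Cre strain that is not named, exons 6 and 7 of Erap1 are the deleted part, and RNA of 3 mice was pooled into 1 library for each group. The methods call the mice germ-free and place them in a specific-pathogen-free facility, and the labels give the tissue as intestine, with no segment, treatment or sex. The study describes the sequenced tissue as colon, taken at steady state. With 1 library per group there is no replicate check and no test, so every difference compares these libraries and not the genotypes, and intervals cover counting error only.

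The epithelium of the gut keeps its identity through a small set of DNA-binding proteins. The caudal-type homeobox factors CDX1 and CDX2 set intestinal fate, the nuclear receptors HNF4A and HNF4G run the absorptive and lipid-handling programme of enterocytes, and the zinc-finger factors GATA4 and GATA6 pattern the gut along its length, with GATA4 found in the proximal small intestine and absent from the colon. Among the Krüppel-like zinc-finger factors, KLF5 is known from dividing crypt cells and KLF4 from differentiated surface and goblet cells, and both are also made in stratified epithelium such as skin, while GATA6 and KLF4 are made in muscle and mesenchymal cells as well.

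The library labelled wild type held 8114826 counted reads and the library labelled hetero type held 8907515. Of Erap1 there were 229 reads in the WT library against 2 in the one labelled HT, which is 0.730% of the WT level after scaling (95% interval 0.0878 to 2.67%). This goes against a label of heterozygosity, in which 1 intact allele is kept. The assay reads the 3′ end of transcripts and the counts hold no read positions, so the deleted exons themselves were not examined. The libraries also differed in Xist (1635 and 6451 reads) and in the Y-linked gene Ddx3y (319 and 29 reads). Other Y-linked genes went the same way, Kdm5d with 72 and 5 reads, Eif2s3y with 111 and 1, and Uty with 110 and 11. The sex of the pooled mice is not given, and a difference in it cannot be told apart from the group. Every direction given here runs from the WT library to the library labelled hetero type, with the disagreement over Erap1 attached. Of 12 colon markers 10 reached 15 CPM (counts scaled to a common depth) in 1 or both libraries, the level used for calls. Muc2 had the most reads of these over both libraries, 12020 and 32939, and Prdx6b had no read. In the WT library alone, Car4 (15163 reads), Car1 (13814) and Saa1 (12924) had more than Muc2. Of 14 small intestine markers 3 reached it, Mgam (1335 and 1332 reads), Slc5a1 (1273 and 1201) and Anpep (117 and 115), and Sis, Apoa4 and Defa24 had no read. Markers of other tissues moved with the library. Epidermis markers summed to 2983 CPM (WT) and 39.5 (HT-labelled), and skeletal muscle markers to 1184 and 22.1, with the epidermal genes Ivl, Dsg1a and Dsc1 at 0 reads in the HT-labelled library.

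Starting regions were at hand for 3 of the 8 factors, from RefSeq on build GRCm38.p6, as windows of 250 bases before to 50 bases after the start of the gene. The window of Cdx2 and that of Klf4 are shown because these 2 factors moved in opposite directions. Both are on the minus strand, chr5:147307200-147307499 and chr4:55532426-55532725, printed 5′ to 3′, and capitals mark a match to GGGNGTG, the letters searched for KLF binding.
Cdx2: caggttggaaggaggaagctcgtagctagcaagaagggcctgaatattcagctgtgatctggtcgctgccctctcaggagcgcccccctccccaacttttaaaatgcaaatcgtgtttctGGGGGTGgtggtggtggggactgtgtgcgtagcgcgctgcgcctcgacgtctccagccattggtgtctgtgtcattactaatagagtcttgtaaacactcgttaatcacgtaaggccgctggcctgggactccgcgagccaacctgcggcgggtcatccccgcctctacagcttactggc
Klf4: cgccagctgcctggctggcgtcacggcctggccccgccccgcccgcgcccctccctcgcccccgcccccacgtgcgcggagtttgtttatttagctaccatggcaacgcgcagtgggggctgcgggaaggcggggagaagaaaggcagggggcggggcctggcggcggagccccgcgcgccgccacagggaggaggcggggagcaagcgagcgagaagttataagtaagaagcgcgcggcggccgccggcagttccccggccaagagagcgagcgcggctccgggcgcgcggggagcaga
The match in Cdx2, GGGGGTG, lay 130 bases before the start, and these letters on either strand occur in 29.2% of 32851 windows of the same length. Searched on both strands, neither window matched TTTATG, the letters for CDX, which 11.9% of all windows hold, or CAAAGTCCA for HNF4, which 0.475% hold. Nor did they match the letters searched for the GATA factors, AGATAA, which 11.2% of windows hold. The Klf4 window held 74.3% G and C, against 57.3% in that of Cdx2. Hnf4a has 2 windows on the plus strand, chr2:163506607-163506906 with 1 match to the GATA letters and chr2:163546905-163547204 with 1 match to the KLF letters. A match is a run of letters and was not tied to binding here.

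Reads were found for 7 of the 8 factors, and these 7 spanned 235-fold in the WT library and 150-fold in the HT-labelled library. Levels are CPM with TMM scaling, which sets library sizes from the genes that differ least. Because the assay counts 1 tag near the 3′ end of each transcript, levels of different genes were compared without division by length. The order in the WT library was Klf4, Klf5, Hnf4a, Cdx1, Gata6, Hnf4g and Cdx2, and in the HT-labelled library Cdx2 stood above Hnf4g with the rest of the order kept. No neighbours in either order had overlapping counting intervals. Klf4 and Klf5 alone made up 86.8% of the reads of all 8 factors in the WT library and 82.7% in the HT-labelled library. Together the factors took 0.404% and 0.351% of all reads.

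**Figure D1:**
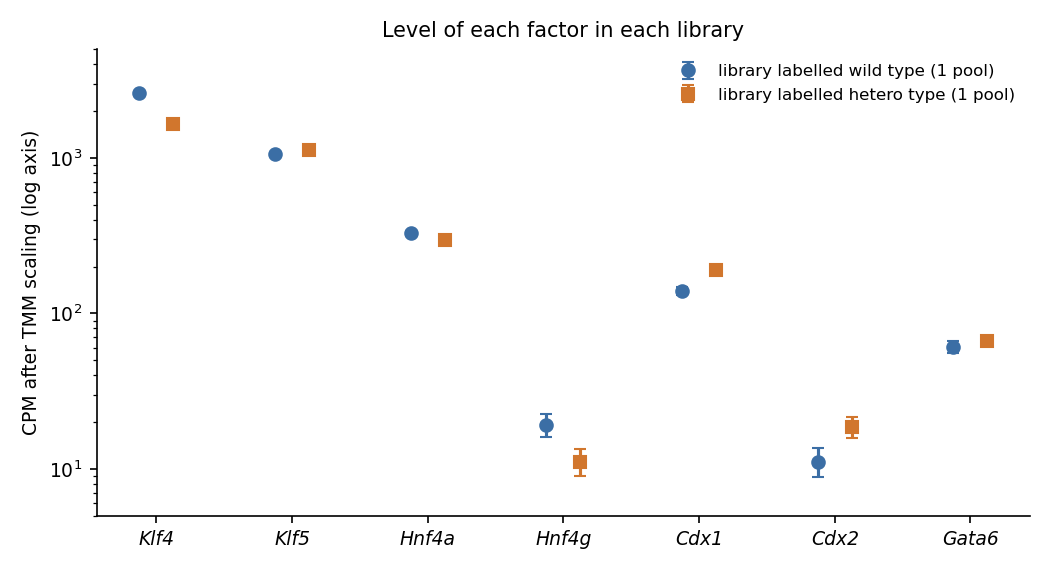
Level of each factor in CPM after TMM scaling, on a log axis, in the library labelled wild type (circles) and the library labelled hetero type (squares), each 1 pool. Bars are exact Poisson 95% intervals of the read count, smaller than the symbol for the abundant factors, and Gata4 is left out because it had no read. Cdx2 and Hnf4g change places between the libraries.

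All 7 detected factors reached the level used for calls, log2(CPM + 1) of at least 4 (15 CPM) in 1 or both libraries. Of these, 5 reached it in both, while Cdx2 reached it only in the HT-labelled library and Hnf4g only in the WT library. None of the 7 differed by more than 2-fold on the log2(CPM + 1) scale, against 428 of 8013 genes at that level (5.34%). At 1.5-fold, 3 of the 7 were called, Cdx2 higher and Hnf4g and Klf4 lower in the HT-labelled library, against 15.6% of all genes. The filter admitted Cdx2 and Hnf4g only through the library where each was higher, so their calls are not independent of it. Of the 5 factors at the level in both libraries, Klf4 alone was called. The counting interval of the ratio left out 1 for 6 of the 7, all but Gata6, against 57.9% of all genes. Their median difference was 0.08 on the log2 scale, and that of all genes was -0.026.

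**Figure D2:**
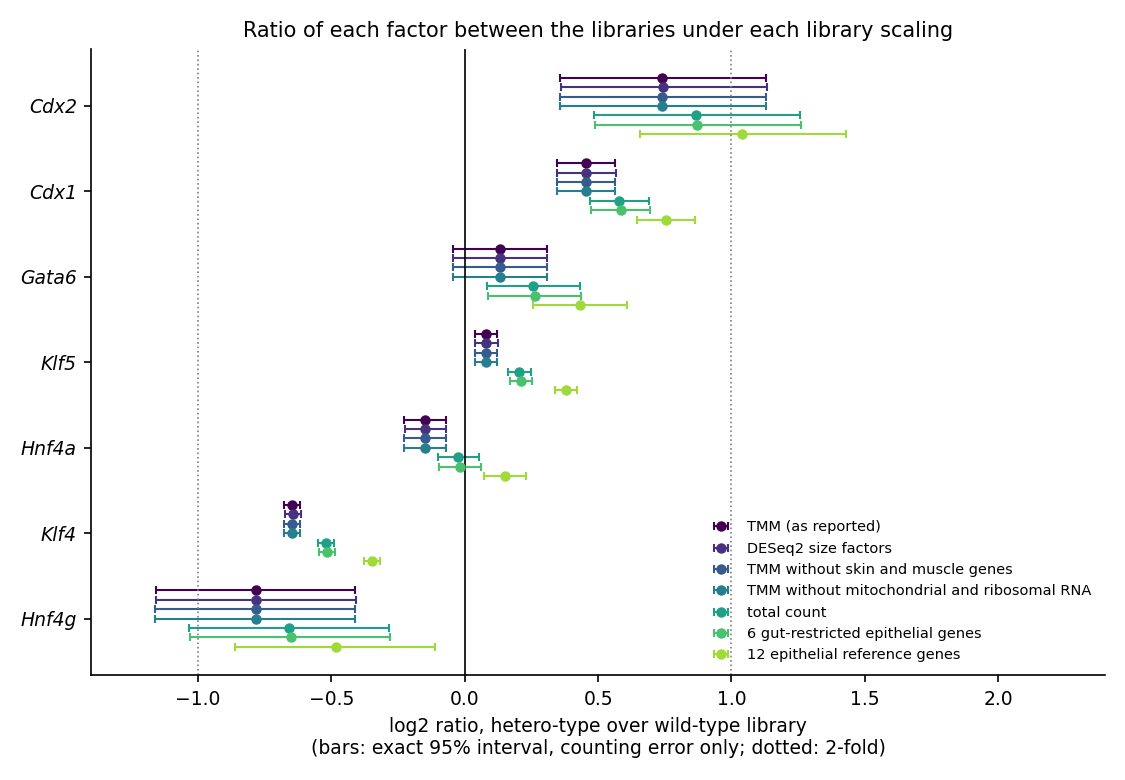
log2 ratio of each factor in the library labelled hetero type over the library labelled wild type, under 7 ways of scaling the libraries, with exact 95% intervals for counting error. Dotted lines mark 2-fold. Cdx1, Cdx2, Gata6 and Klf5 lie above 0 and Klf4 and Hnf4g below 0 in all 7, whereas Hnf4a lies above 0 when scaled by the 12 epithelial reference genes and below 0 otherwise.

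Both CDX factors were higher in the library labelled hetero type. Cdx1, which is most abundant in the crypts of the adult gut, had 1080 WT reads and 1772 HT-labelled reads, or 139 and 190 CPM. The ratio was 1.37 (95% interval 1.27 to 1.48), and the log2 difference of 0.45 lay at percentile 90.3 of all genes at the level. Cdx2, the main determinant of intestinal fate, had far fewer reads, 86 and 172, or 11.1 and 18.5 CPM. Its ratio was 1.67 (1.28 to 2.19). Its log2 difference of 0.69 lay at percentile 96.3, a ranking that Cdx2 entered only through its HT-labelled level. The intervals of these ratios overlapped, and so did the share of Cdx1 in the reads of the pair, 92.6% (91.0 to 94.1%) in the WT library and 91.2% (89.8 to 92.4%) in the HT-labelled library. The difference of Cdx1 from Cdx2 was therefore not detectable at this depth. Cdx4, the other member of the family, had no read in either library, and the floor of 3 reads used here for a count of 0 is 0.386 CPM (WT) and 0.322 CPM (HT-labelled). On build GRCm38, Cdx1 (ENSMUSG00000024619) lies on chromosome 18 from 61018862 to 61036199, minus strand, and Cdx2 (ENSMUSG00000029646) on chromosome 5 from 147300805 to 147307270, minus strand, each with 3 exons and no exon of another gene in the last one.

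The HNF4 factors were both lower in the HT-labelled library, by unequal amounts. Hnf4a, the more abundant of the pair, had 2541 and 2744 reads, or 327 and 295 CPM. The ratio was 0.902 (0.854 to 0.952), a log2 difference of -0.15 that lay at percentile 37.0 of all genes. Scaled by the summed epithelial reference genes, the ratio of Hnf4a became 1.11 (1.05 to 1.17), so its direction depends on the scaling. Hnf4g, known from the enterocytes of the small intestine and colon, had 148 and 103 reads, or 19.0 and 11.1 CPM. It was 1.72-fold lower (1.33 to 2.23), a log2 difference of -0.73 at percentile 6.86, and it was lower under every scaling tried. Hnf4g entered that ranking only through its WT level. Within the pair, which needs no scaling between libraries, Hnf4a made up 94.5% of reads (93.6 to 95.3%) in the WT library and 96.4% (95.6 to 97.0%) in the HT-labelled library, and the odds of an Hnf4a read were 1.55 times higher (1.19 to 2.03). Hnf4a (ENSMUSG00000017950) lies on chromosome 2 from 163506808 to 163572910, plus strand, with a last exon of 2962 bases that no exon of another gene overlaps, and the antisense transcript Hnf4aos over its body had 0 and 3 reads. Hnf4g (ENSMUSG00000017688) lies on chromosome 3 from 3508030 to 3658052, plus strand, with a last exon of 998 bases.

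Gata6 was the only GATA factor above the level in either library. It had 472 and 619 reads, or 60.7 and 66.5 CPM, and its ratio (1.10, 0.970 to 1.24) included 1, so no difference was detectable at this depth under TMM scaling. Scaled by total count the ratio was 1.19 (1.06 to 1.35) and by the epithelial reference genes 1.35 (1.19 to 1.52). Gata4 had no read in either library, so Gata6 made up all 472 and all 619 reads of the pair (lower limits 99.2% and 99.4%). Of the other family members, Gata3, a factor of T cells, innate lymphoid cells and skin, had 71 and 25 reads, or 9.14 and 2.69 CPM. Gata2 had 19 and 31 reads, Gata5 had 4 and 5, and Gata1 had 0 and 1. Gata6 (ENSMUSG00000005836) lies on chromosome 18 from 11052064 to 11085635, plus strand, and Gata4 (ENSMUSG00000021944) on chromosome 14 from 63198922 to 63271692, minus strand, with a last exon of 1630 bases.

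Klf4 and Klf5 were among the most abundant transcripts of the tissue, and the balance between them differed. Klf4 had 20240 (WT) and 15474 (HT-labelled) reads, or 2605 and 1663 CPM, which placed it at rank 26 and rank 40 of all symbols. It was 1.57-fold lower (1.53 to 1.60), a log2 difference of -0.65 at percentile 8.49. Klf5 had 8214 and 10392 reads, or 1057 and 1117 CPM, at rank 85 and rank 74. Its ratio was 1.06 (1.03 to 1.09), a log2 difference of 0.08. Klf4 reads were 2.46 times those of Klf5 in the WT library and 1.49 times in the HT-labelled library. The share of Klf4 in the pair was 71.1% (70.6 to 71.7%) and 59.8% (59.2 to 60.4%), intervals that do not overlap and that do not depend on how the libraries are scaled. Klf4 stayed lower under each scaling, but the size ranged from 1.57-fold to 1.44-fold with total counts and 1.27-fold with the epithelial reference genes. Klf4 (ENSMUSG00000003032) lies on chromosome 4 from 55527143 to 55532466, minus strand, and Klf5 (ENSMUSG00000005148) on chromosome 14 from 99298691 to 99315036, plus strand, with last exons of 1158 and 1886 bases.

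**Figure D3:**
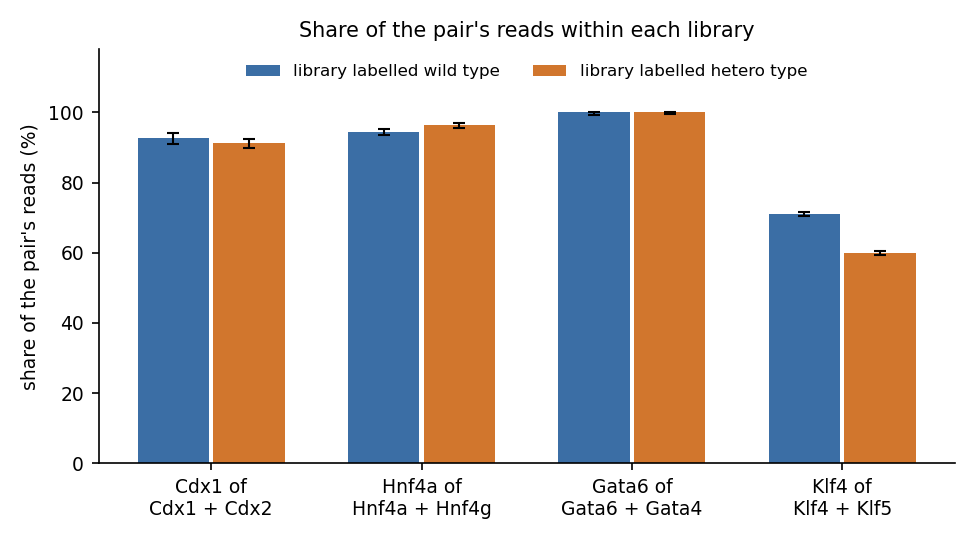
Share of the first-named gene in the reads of each related pair, in percent, in the library labelled wild type and the library labelled hetero type, with exact Clopper-Pearson 95% intervals. The share of Klf4 goes from 71.1% to 59.8%, while the shares of the other 3 pairs differ by less than 2 percentage points. Shares near 100% can move little: the odds of a Klf4 read were 1.65 times lower and those of an Hnf4a read 1.55 times higher. The Gata6 share is 100% because Gata4 had no read.

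Other markers moved along with Klf4. The epidermis list, whose tissue also makes Klf4 and Klf5, was lower by 75.6-fold in summed CPM, with 12 of 14 markers at the level and all 12 more than 2-fold lower. The epidermal keratin gene Krt10 had 3922 and 72 reads, and Flg, which encodes the barrier protein filaggrin, had 7952 and 4. All 10 smooth muscle markers were lower, 3 of them by more than 2-fold, from 11566 to 5921 CPM in sum. The regulators that define stratified epithelium were scarce beside Klf4 even in the WT library, with 23 reads of Trp63, 60 of Tfap2a and 42 of Tfap2c, and 0, 2 and 2 in the HT-labelled library. Genes of the colonic surface were lower too: the carbonic anhydrase genes Car1 and Car4 were 1.77-fold and 2.16-fold lower, the chloride exchanger gene Slc26a3 1.52-fold, and Krt20, a keratin gene of differentiated surface cells, 2.31-fold. The part of these markers in the level of Klf4 was not tested, and in bulk tissue fewer cells of a type and less RNA per cell cannot be told apart.

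Set against the epithelium, Cdx1, Cdx2, Gata6, Klf5 and, by the least, Hnf4a were higher in the HT-labelled library. Per 1000 reads of 12 general gut epithelial genes, Cdx1 had 12.2 reads (WT) and 20.7 (HT-labelled), Cdx2 had 0.975 and 2.01, Gata6 had 5.35 and 7.22, and Klf5 had 93.1 and 121. Hnf4a had 28.8 and 32.0. Klf4, with 229 and 180, and Hnf4g, with 1.68 and 1.20, were lower on this scale also. The epithelial genes themselves summed to 11350 and 9222 CPM, 10 of 12 lay below 0 with TMM, and their median log2 difference was -0.32. This scaling raised the median of all genes by 0.294 on the log2 scale, so relative to that median the factors stood as they did with TMM. The reference holds Krt20. With 6 of its genes, picked as more gut-restricted after the data were seen, the ratios were 1.83 for Cdx2, 0.987 for Hnf4a and 0.699 for Klf4. How far these 6 genes are restricted to gut epithelium was not tested.

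The ratio of one factor to another within a library is free of any scaling between libraries, and 21 such pairs were formed from the 7 detected factors. The counting interval included 1 for 3 pairs, Cdx2 with Cdx1, Klf4 with Hnf4g, and Gata6 with Klf5. In order of these ratios, Cdx2 and Cdx1 stood at one end, then Gata6, Klf5 and Hnf4a, and Klf4 and Hnf4g at the other end. In 13 pairs the ratio differed by more than 1.5 times between the libraries, and in 4 by more than 2 times. The reads of Cdx2 per Hnf4g read went from 0.581 to 1.67, 2.87 times higher (1.97 to 4.19). Cdx2 against Klf4 was 2.62 times higher (2.01 to 3.43), Cdx1 against Hnf4g 2.36 times (1.80 to 3.10), and Cdx1 against Klf4 2.15 times (1.98 to 2.32).

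**Figure D4:**
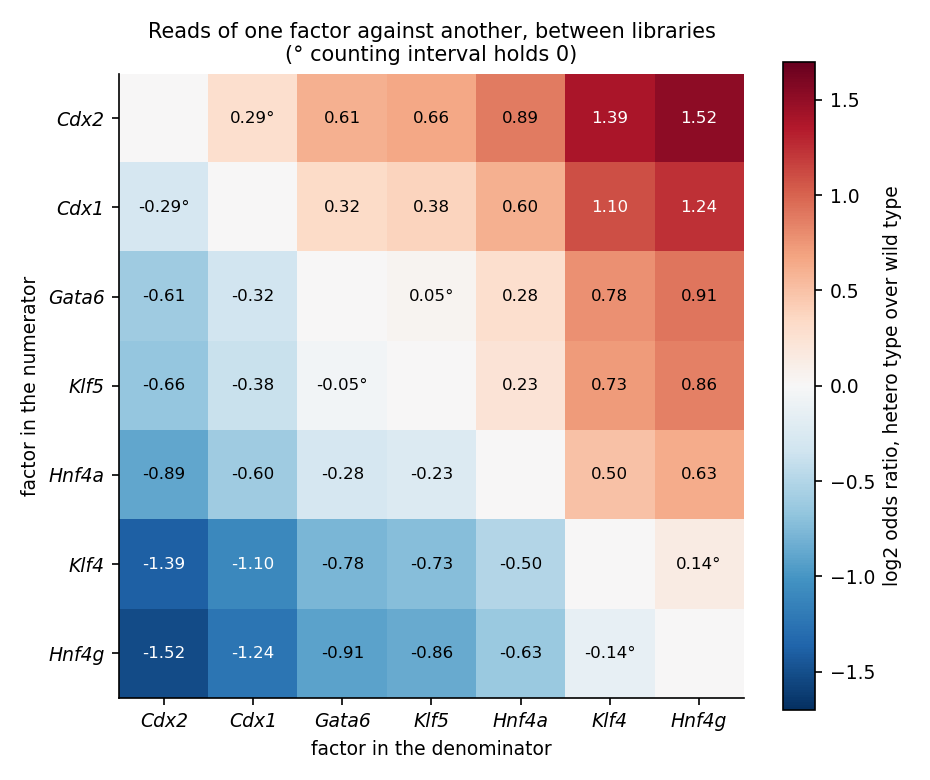
log2 of how many times higher the reads of the row factor per read of the column factor were in the library labelled hetero type than in the library labelled wild type, for the 21 pairs (each shown in both orders). A degree sign marks the 3 pairs whose counting interval holds 0. The largest value is that of Cdx2 against Hnf4g, 1.52.

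The known targets of the CDX and HNF4 factors did not move as a block. Of 14 CDX target genes, 10 reached the level, with a median log2 difference of -0.26 that turned positive under epithelial scaling. Cdh17, Gpa33, Krt20 and Vil1 of this list are also epithelial reference genes, so that scaling is not independent of the list. Muc2, the gel-forming mucin of goblet cells, was 2.29-fold higher (12020 and 32939 reads), whereas Krt20 was the 1 gene more than 2-fold lower (5156 and 2674 reads). Guca2a, the gene of the peptide guanylin, had 3280 and 5221 reads, and the cell-surface antigen gene Gpa33 had 3582 and 3174. Sis, the sucrase-isomaltase gene and a classic target of CDX2, had no read. Of 17 HNF4 target genes, 10 reached the level, with a median of -0.095 that changed sign under total count and epithelial scaling. The brush border cadherin gene Cdhr5 had 5526 and 3915 reads, a ratio of 0.592, and the actin bundler gene Vil1 had 1597 and 1543. The lipoprotein gene Apob had 131 and 171 reads and Apoa4 had none.

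KLF targets were likewise mixed, while GATA targets were mostly below the level, so their direction as a list could not be read. Of 10 GATA target genes, most of them ileal or jejunal, 4 had no read and only Slc51b, a subunit gene of the bile salt exporter, reached the level, with 113 and 176 reads. Of 10 KLF target genes 8 reached it, with a median of -0.072 that changed sign under total count and epithelial scaling. Cdk1, the mitotic kinase gene, was 2.24-fold higher (184 and 494 reads). Krt4, a keratin gene of stratified mucosa, was 140-fold lower (1056 and 9 reads), in step with the epidermis markers. Krt19, a simple-epithelial keratin gene, had 10776 and 9290 reads and the cell cycle inhibitor gene Cdkn1a had 4000 and 4128. Vil1 of the HNF4 list and Krt19 of the KLF list are also epithelial reference genes. These lists were put together from general knowledge of the factors and name no site measured here.

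Among the other Krüppel-like factors, 8 of 15 reached the level and none differed by more than 2-fold. Their median log2 difference was -0.45, with 6 below 0 and 2 above, against -0.026 for all genes. Klf3, a repressor of the family, had 5757 and 4686 reads and was 1.47-fold lower (1.41 to 1.53). Klf6 had 3856 and 3120 reads and was 1.48-fold lower (1.41 to 1.55). Klf13 was 1.52-fold lower (1.41 to 1.64) with 1482 and 1168 reads. Klf9, a gene induced by glucocorticoids, had 2868 and 3211 reads, a ratio of 0.935 whose direction turned with total count and epithelial scaling. Klf4 was on the lower side with 6 others of its family, and Klf5 was not. Smooth muscle and skin, whose markers were lower in the HT-labelled library, also make several of these factors, and their part was not tested.

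Of 33 further transcription factors of gut epithelium, 22 reached the level, with a median of 0.04. Foxa2, a forkhead factor of endoderm and of secretory cells, was 2.04-fold higher (425 and 1038 reads), and Atoh1, which commits cells to the secretory lineage, was 2.67-fold higher (97 and 310 reads). Prdm1, a repressor also made in plasma cells and epidermis, was 2.61-fold lower (216 and 99 reads). Those with the most reads were Vdr, the vitamin D receptor gene, with 3127 and 2646, the Wnt effector gene Tcf7l2 with 2708 and 2585, the crypt factor gene Sox9 with 1770 and 2694, and Ehf with 1887 and 2293. Of 12 factors of stratified epithelium, 3 reached the level and none of these differed by more than 2-fold. The median over those 3 was -0.34.

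Likeness to the members was measured among the same 33 factors as the distance of log2(CPM + 1) values over 2 libraries. Hnf4a was nearest to Tcf7l2 (distance 0.13), Gata6 to the xenobiotic receptor gene Nr1i2 (0.23) and Cdx1 to the Notch target gene Hes1 (0.38). Cdx2 was nearest to Ascl2, a factor of crypt stem cells that had 59 and 137 reads, at a distance of 0.58. No factor of the list was close to Klf4 or Klf5, whose nearest was Vdr at 3.70 and 2.41. With 2 points per gene, nearness mostly reflects the level.

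**Figure D5:**
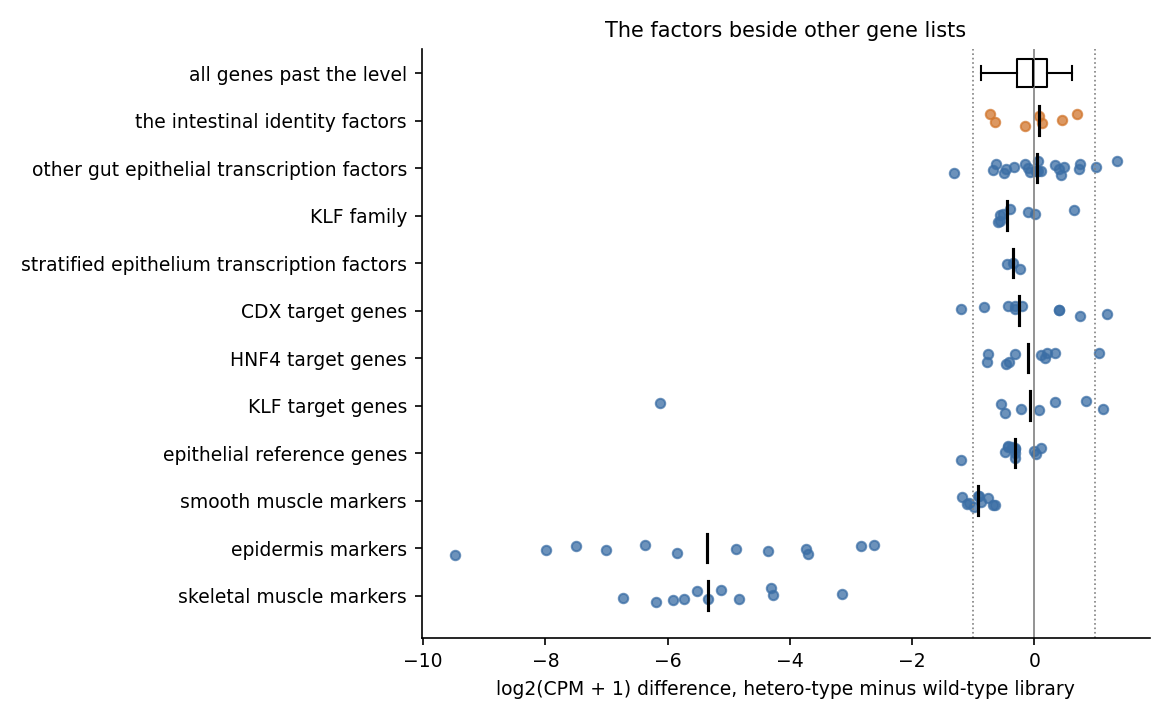
Difference of log2(CPM + 1), library labelled hetero type minus library labelled wild type, for the genes of each list that reached the level (1 point each, spread vertically for view), with the median of each list as a short line and 2-fold as dotted lines. The box at the top gives all 8013 genes, with quartiles, and whiskers at percentiles 5 and 95. The intestinal identity factors lie within 2-fold, while the epidermis and skeletal muscle markers lie far to the left.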

How the data were processed

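Total RNA of mouse intestine was made into 3′-end libraries with an oligo-dT kit and sequenced by the authors as single reads of 75 bases. The authors deposited 1 table of read counts per gene symbol for each of 2 libraries, not normalized. The submitters' processing notes name Bowtie2, RSEM and GRCm38, and the methods also describe STAR with HTSeq-count; which made the counts is not stated, and versions are not given in the sources used here. Depth was 8114826 reads (WT) and 8907515 (HT), of which 18.0% and 16.7% were mitochondrial or ribosomal RNA.

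TMM factors (0.958 and 1.04; edgeR 4.0.16 in R 4.3.3) scaled the counts to CPM. Differences are log2(CPM + 1), HT minus WT, and understate changes of low genes. Levels carry exact Poisson intervals, ratios exact conditional binomial intervals and shares Clopper-Pearson intervals, all at 95% and for counting error only; 3 reads were used as the floor for a count of 0. A gene entered calls when its log2(CPM + 1) reached 4 in either library. Scripts were tested on simulated data. With 1 library per group no p-value was computed.

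Named genes were the 8 factors, list genes past 2-fold, up to 4 genes per list with the most reads, the nearest gut factor of each member, and a few genes named after their values were seen (Car1, Slc26a3, Apob, Vil1, Gata1, Gata2, Gata3, Gata5, Klf13, Krt10, Trp63, Tfap2a and Tfap2c among them). The members and lists were chosen with earlier results of these data known. Lists cover target genes, related factor families, colon, small intestine, mesenchyme, epithelial, epidermis and muscle markers; some genes stand in 2 lists. Of 12 colon markers, 10 reached the level, 2 were more than 2-fold higher and 1 lower (median 0.34); of 14 small intestine markers 3 did (median -0.27, positive under epithelial scaling); of 9 mesenchyme markers 8 did, none past 2-fold (median -0.016). Alternatives were total count scaling, DESeq2 1.42.0 size factors, library sizes without epidermis and muscle lists or without mitochondrial and ribosomal RNA, 2 epithelial scalings, a pseudocount of 0.1, 2 other filters on low counts and a 1.5-fold threshold. Gene positions are from GENCODE M21 on GRCm38. No sequence is given for factors on chromosome 18, and protein sequences were not used here. Some genes that the naming rule selects are not reported here.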

Additional observations from a re-analysis of the deposited data

How the results depend on the processing

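No paired analysis was possible because there is 1 library for each genotype, and for the same reason no library could be left out. DESeq2 size factors, library sizes without the epidermis and muscle lists, library sizes without mitochondrial and ribosomal RNA, and a pseudocount of 0.1 kept every value of the 7 detected factors within its counting interval. Total count scaling gave log2 differences of 0.58 for Cdx1, -0.024 for Hnf4a, -0.52 for Klf4 and 0.20 for Klf5, with a median of 0.20 over the factors, and raised the median of all genes by 0.122. Scaling by the 12 epithelial reference genes gave 0.75 for Cdx1, 0.15 for Hnf4a, 0.42 for Gata6, -0.35 for Klf4 and 0.38 for Klf5, with a median of 0.38. Scaling by 6 of these genes, picked as more gut-restricted after seeing the data, gave 0.58 for Cdx1, -0.018 for Hnf4a, -0.52 for Klf4 and 0.21 for Klf5, with a median of 0.21. Hnf4a changed sign under scaling by the 12 genes, and no other detected factor changed sign under any of the 6 other scalings. Under the 3 scalings that moved values, 2 factors passed 1.5-fold in place of 3. Those were Cdx2 and Hnf4g under total counts and the 6 genes, and Cdx1 and Cdx2 under the 12 genes, and Klf4 dropped out each time. On the log2(CPM + 1) scale no factor passed 2-fold under any scaling or filter, nor with a pseudocount of 0.1. The plain ratio of Cdx2 was 2.06 (1.58 to 2.70) when scaled by the 12 epithelial genes, past 2-fold. With a 1.5-fold threshold 3 factors and 1247 of all genes were called. Without a filter on low values 1434 genes passed 2-fold, and with at least 10 reads in 1 or both libraries 1390, since more genes were then counted. Among genes past 2-fold, 74.1% were lower in the HT-labelled library with TMM and 59.9% with total counts. No list gene or list median past 2-fold changed sign. At this depth the counting interval of Cdx2 runs from 1.28 to 2.19 and that of Klf4 from 0.625 to 0.652, so the low factors are known far less closely, and the spread between mice is unknown for all of them.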

Other observations

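Below the level used for calls, several regulators of secretory cells had more reads in the library labelled hetero type, the library in which Cdx1 and Cdx2 were higher and Klf4 lower. These genes were chosen after their values were seen. Spdef, a factor of goblet and Paneth cells, had 48 (WT) and 115 (HT-labelled) reads, with an interval of the ratio from 1.42 to 2.86. Gfi1, which acts downstream of Atoh1, had 12 and 68 reads (4.73, 2.54 to 9.61), and Neurod1, of enteroendocrine cells, had 20 and 67 (2.80, 1.68 to 4.87). Isx, a homeobox gene known as a CDX2 target of the small intestine, had 0 and 19 reads. The antimicrobial gene Ang4, above the level, had 114 and 911 reads, a ratio of 6.68 (5.49 to 8.18).

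The antisense transcripts named after Hnf4a and Gata6 were near absent, and no other antisense transcript over a factor was examined. Hnf4aos had 0 and 3 reads and Gata6os had 4 and 1, against 2541 and 2744 reads of Hnf4a and 472 and 619 of Gata6.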
